A study of Mus musculus with 18 samples.

Results

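Expression of 10 lung epithelial lineage transcription factors (Nkx2-1, Foxa1, Foxa2, Gata6, Klf5, Grhl2, Id2, Sox2, Sox9 and Elf5) was followed in alveolar type II cells of mice with and without deletion of Cebpa. The genes were taken by symbol from the array rows annotated with a single gene symbol. All 10 were found, each as 1 row, among 19938 genes measured, and none was left out by a filter. Over the 3 times, Sox9 was higher on each of the 9 Cebpa-deleted arrays than on any of the 9 control arrays. Its mean level was the lowest of the factors, above that of 48.0% of all genes. At 24 h Nkx2-1, Foxa1, Foxa2, Gata6, Klf5, Grhl2 and Elf5 were lower in Cebpa-deleted cells than in control cells. The Cebpa-deleted 24 h arrays also had a narrower range of values, which cannot be told apart from genotype at that time. With array range in the model none of these falls was called, and 4 of all genes were.

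Lung epithelium is specified and kept by a small set of transcription factors that act together on shared enhancers. NKX2-1, a homeodomain protein, is required for lung formation and activates surfactant genes in type II cells, where it works with the forkhead factors FOXA1 and FOXA2 and the zinc finger factor GATA6. SOX9 marks the distal tips of the branching mouse lung, SOX2 marks its airways, and C/EBPα, the product of the deleted gene, is a basic leucine zipper factor of maturing type II cells.

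Total RNA was measured on 18 arrays of type II cells isolated from mice aged 7-8 wk, in 6 groups of 3 arrays each. The Cebpa-deleted cells came from mice labelled CCSP/rtTA/CEBPa(flx/flx), sampled at 0, 2 and 24 h of hyperoxia, a high concentration of inspired oxygen. The control cells came from CEBP/a(flx/flx) littermates without the rtTA or without the Cre transgene, sampled at the same times, so that both genotypes carried the floxed Cebpa gene. CCSP names the promoter of a secretory protein of airway Clara cells. Per the series design, deletion began during early gestation in Clara cells and close to term in type II cells. Times are those of the sample titles and hyperoxia that of the design, while each sample description states air. The labels do not say that arrays of a group came from different animals, and p-values here therefore cover only the spread between these samples, which may be technical.

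Values are the deposited RMA expression, on a log2 scale on which 1 unit is a doubling. A change is the mean of the Cebpa-deleted arrays minus the mean of the control arrays from limma fitted to all 18 arrays, its SE is that of the moderated model, and a gene was called at a Benjamini-Hochberg adjusted p below 0.05 over all 19938 genes. Cebpa itself was at 10.58, 10.66 and 10.43 in Cebpa-deleted cells at 0 h against 10.95, 10.97 and 11.04 in control cells, at 9.98, 8.96 and 9.31 against 10.43, 10.46 and 10.68 at 2 h, and at 8.66, 8.26 and 8.38 against 10.45, 10.12 and 10.22 at 24 h. It was below every control array of the same time on all 9 Cebpa-deleted arrays, and its change was -0.43 (adjusted p = 0.43), -1.10 (0.0046) and -1.83 (8.2e-06) at 0, 2 and 24 h. The interquartile range of all genes, the span of the central part of each array's values, was 2.97 ± 0.09 in Cebpa-deleted and 3.01 ± 0.03 in control cells at 0 h, 2.35 ± 0.20 and 2.25 ± 0.13 at 2 h, and 1.94 ± 0.16 and 2.47 ± 0.04 at 24 h (SD, n = 3 each). Type II markers were present on every array, and the mean of 16 of them lay between 11.43 and 11.77 in Cebpa-deleted cells at 24 h, below the 12.36 to 12.43 of control cells. The mean of 18 endothelial markers was higher in the Cebpa-deleted isolates at each time, at 9.12 to 9.36 against 8.16 to 8.42 at 0 h, 8.64 to 9.56 against 8.05 to 8.32 at 2 h and 8.998 to 9.14 against 8.12 to 8.80 at 24 h. In such isolates fewer cells of a type and less RNA per cell cannot be told apart. The part of endothelial cells in the changes of the lineage factors was not tested.

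**Figure D1:**
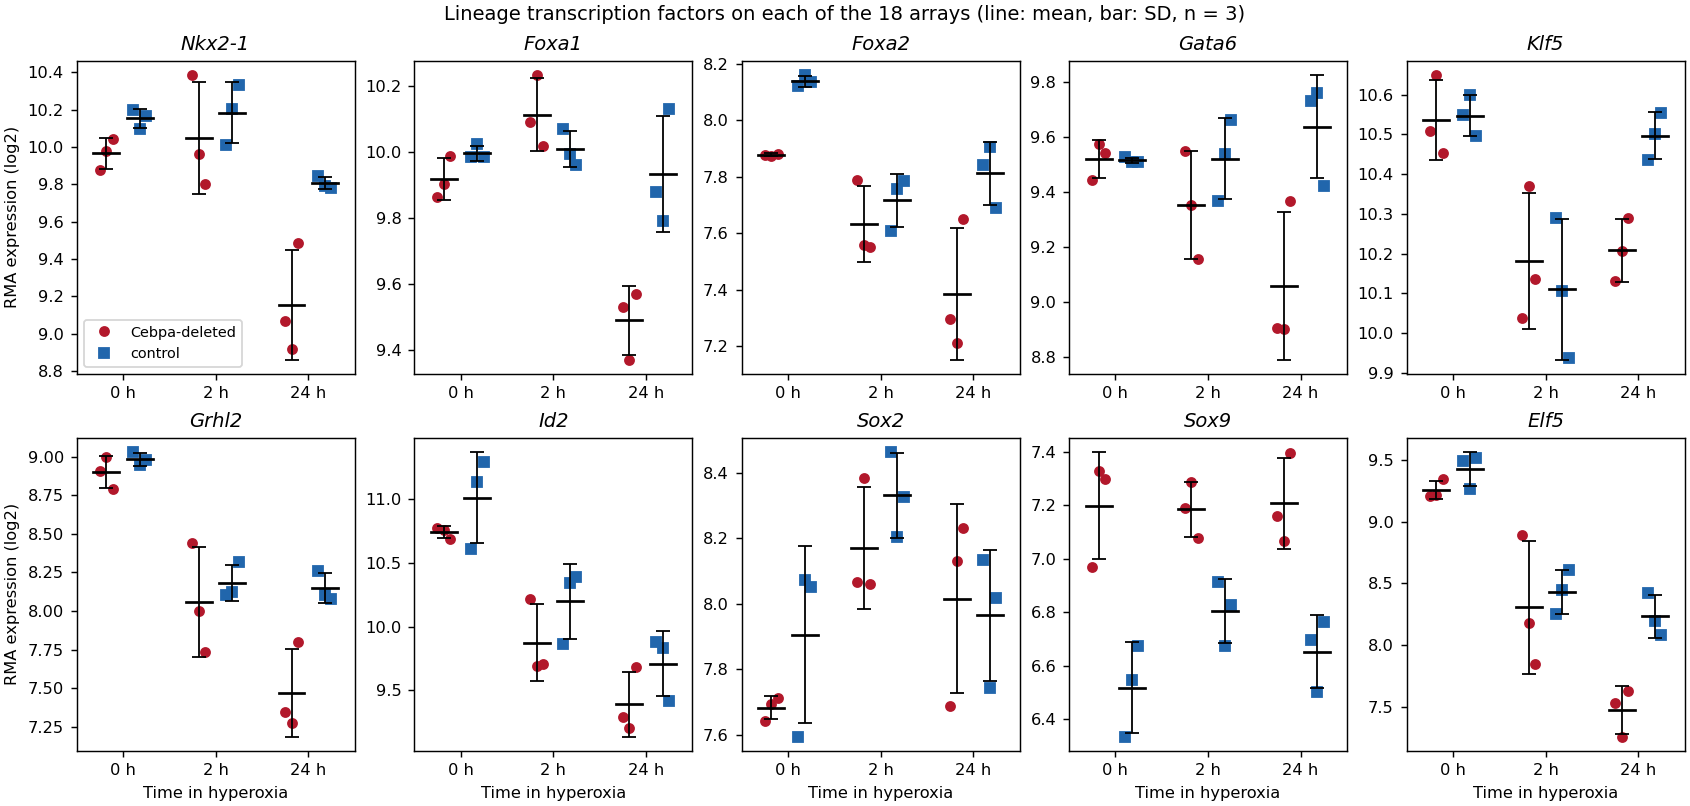
RMA expression (log2) of each of the 10 factors on every array, by time in hyperoxia, with Cebpa-deleted cells as red circles left of control cells as blue squares; lines are means and bars SDs of 3 arrays. The 9 Cebpa-deleted arrays lie between 6.97 and 7.40 for Sox9 and the 9 control arrays between 6.34 and 6.91. At 24 h Nkx2-1, Foxa1, Klf5, Grhl2 and Elf5 separate downward, as Foxa2 and Gata6 do narrowly.

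Of the 10 factors 1 was called at 0 h (Sox9, higher; background 0.858% of all genes called, 0.677% higher), none at 2 h (background 1.40%), and 8 at 24 h, 7 lower and 1 higher (background 50.7%, with 26.4% lower and 24.3% higher). The median change of the 10 was -0.13, -0.13 and -0.44 at the 3 times, and that of all genes 0.00, -0.02 and 0.05. At 24 h the calls among the factors are to be read against a share of called genes of that size. Centring each array on its own median left 3606 genes higher and 6069 lower at 24 h, against 4852 and 5258 without it, and the calls among the factors were again 7 lower and 1 higher. At 2 h, where limma called none of the factors, 1 factor had an unadjusted p below 0.05, Sox9, beside 2197 of all genes.

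**Figure D2:**
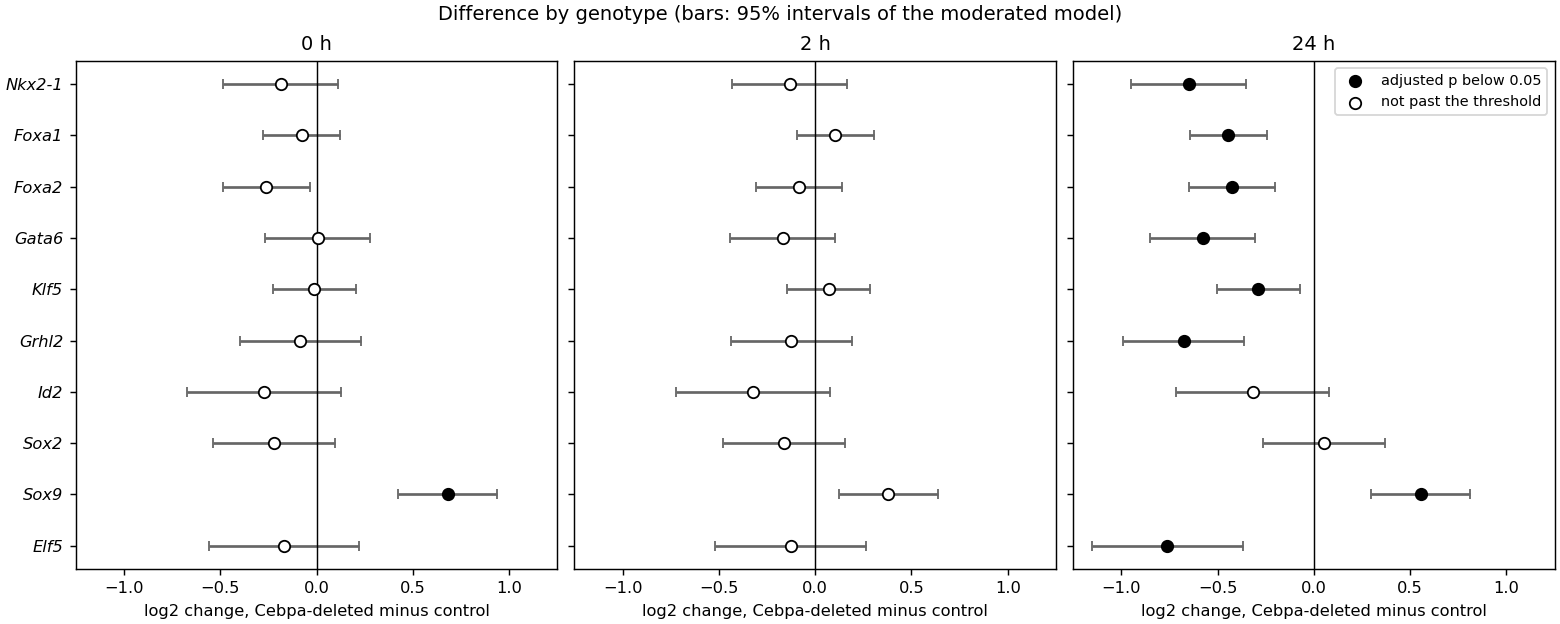
Log2 change of each factor, Cebpa-deleted minus control, at 0, 2 and 24 h, with 95% intervals of the moderated model; filled points are called. Sox9 lies right of 0 at every time, and 7 factors are called left of 0 at 24 h.

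Promoter windows of RefSeq (GRCm38.p6), reaching from 250 bases before to 50 bases after a start of transcription, were held for 6 of the factors (Nkx2-1, Foxa1, Foxa2, Id2, Sox2 and Elf5) in 9 windows. They were searched on both strands for TTGCNNAA, letters of a C/EBP site, TNTTTAC, of a forkhead site, and CAAGTG, of an NKX2 site. These occur in 10.8%, 12.4% and 13.6% of the 32851 windows of that length in the table. The C/EBP letters were found once in each of the 2 Elf5 windows and once in the Sox2 window (TTGCTGAA, 237 to 230 bases before the start), and the forkhead letters once, on the reverse strand, in the Foxa1 window. The Foxa2, Id2 and Nkx2-1 windows held none of the 3, which says only that these letters are not in those windows. Shown 5′ to 3′ in the direction of the gene, with the matched letters in capitals, are both windows of Elf5, the factor with the largest fall at 24 h, that of Foxa1, and that of Nkx2-1 as a window of a falling factor without a match.
Elf5 chr2:103411848-103412147, plus strand: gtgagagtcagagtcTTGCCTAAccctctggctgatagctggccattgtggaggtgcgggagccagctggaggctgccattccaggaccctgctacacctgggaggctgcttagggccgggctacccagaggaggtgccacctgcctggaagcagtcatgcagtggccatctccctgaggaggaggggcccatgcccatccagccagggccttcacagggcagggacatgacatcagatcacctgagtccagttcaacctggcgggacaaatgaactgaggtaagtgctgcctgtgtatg
Elf5 chr2:103423818-103424117, plus strand: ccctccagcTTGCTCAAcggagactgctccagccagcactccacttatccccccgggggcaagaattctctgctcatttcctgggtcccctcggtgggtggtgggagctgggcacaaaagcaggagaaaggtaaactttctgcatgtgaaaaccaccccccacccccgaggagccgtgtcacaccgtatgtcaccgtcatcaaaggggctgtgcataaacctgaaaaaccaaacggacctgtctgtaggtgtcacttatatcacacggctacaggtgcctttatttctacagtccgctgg
Foxa1 chr12:57546062-57546361, minus strand: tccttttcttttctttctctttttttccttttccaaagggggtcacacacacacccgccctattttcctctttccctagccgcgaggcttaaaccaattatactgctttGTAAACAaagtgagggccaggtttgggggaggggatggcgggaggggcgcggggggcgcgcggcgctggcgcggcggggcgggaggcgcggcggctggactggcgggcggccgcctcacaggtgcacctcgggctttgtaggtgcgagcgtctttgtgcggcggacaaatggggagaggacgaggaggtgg
Nkx2-1 chr12:56536859-56537158, minus strand: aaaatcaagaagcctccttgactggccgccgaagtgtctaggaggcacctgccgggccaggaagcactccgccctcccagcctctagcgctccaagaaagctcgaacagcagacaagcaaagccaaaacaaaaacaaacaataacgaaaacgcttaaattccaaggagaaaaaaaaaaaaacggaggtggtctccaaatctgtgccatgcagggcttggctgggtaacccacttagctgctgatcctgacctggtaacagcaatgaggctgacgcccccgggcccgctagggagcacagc
The Elf5 matches stand at 235 to 228 and at 241 to 234 bases before their starts, and the Foxa1 match at 141 to 135 bases before its start. A match describes the letters and is no measure of binding.

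Nkx2-1, the regulator on which lung identity and surfactant transcription rest, stood at 9.07, 8.92 and 9.48 in Cebpa-deleted cells at 24 h against 9.84, 9.79 and 9.78 in control cells. All 3 Cebpa-deleted arrays were below all 3 control arrays, as was so for 30.4% of all genes, and the change was -0.65 (SE 0.14, 95% interval -0.95 to -0.35, adjusted p = 0.0020), a level 63.7% of that in control cells. At 0 h the arrays also did not overlap, at 9.88, 9.98 and 10.04 in Cebpa-deleted against 10.20, 10.10 and 10.17 in control cells, as 8.77% of all genes likewise lay lower without overlap, but the change of -0.19 was not called (adjusted p = 0.80). At 2 h the groups overlapped, at 10.38, 9.96 and 9.80 in Cebpa-deleted and 10.01, 10.21 and 10.33 in control cells, with a change of -0.13 (adjusted p = 0.84). With array range in the model that change became -0.28 and was called (adjusted p = 0.035), beside 999 of all genes. The group means fell in the order control 2 h, control 0 h, Cebpa-deleted 2 h, Cebpa-deleted 0 h, control 24 h and Cebpa-deleted 24 h. Of the neighbours in that order, the first 4 groups had means within 10.18 to 9.97, a span near the pooled SD of 0.19 within groups, and Cebpa-deleted cells at 24 h stood apart at the foot.

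Gata6, a zinc finger factor needed for differentiation of the distal epithelium, was at 8.91, 8.90 and 9.37 in Cebpa-deleted cells at 24 h against 9.73, 9.76 and 9.42 in control cells. The groups did not overlap, although the highest Cebpa-deleted array was close to the lowest control array, and the change was -0.58 (SE 0.13, adjusted p = 0.0023). At 0 h the 6 arrays lay within 9.44 to 9.57 and the change was 0.01, and at 2 h it was -0.17 (adjusted p = 0.73). The difference at 24 h minus that at 0 h was -0.58 (SE 0.18, adjusted p = 0.044), and among the 10 factors Gata6 was the single one called for this interaction, against a background of 8.88% of all genes called lower. In RefSeq the gene overlaps Gata6os, and the sources used here do not say whether the probes tell the strands apart.

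The forkhead pair, pioneer factors with overlapping roles in lung epithelium, was lower in Cebpa-deleted cells at 24 h. Foxa1 was at 9.53, 9.37 and 9.57 in Cebpa-deleted cells against 9.88, 9.79 and 10.13 in control cells, without overlap, a change of -0.44 (SE 0.09, adjusted p = 0.0017). Foxa2 was at 7.29, 7.21 and 7.65 against 7.84, 7.90 and 7.69, a change of -0.43 (SE 0.11, adjusted p = 0.0043) in which the nearest arrays of the 2 groups almost met. Foxa1 at 2 h was at 10.09, 10.23 and 10.02 in Cebpa-deleted cells against 10.07, 9.99 and 9.96 in control cells, a change of 0.11 (adjusted p = 0.79), and the difference at 24 h minus that at 2 h was -0.55 (SE 0.13, adjusted p = 0.010). Foxa1, which overlaps Ttc6 in RefSeq, was the single factor called for that interaction, beside 16.5% of all genes called lower. Foxa2 was already apart at 0 h, at 7.88, 7.87 and 7.88 in Cebpa-deleted cells against 8.12, 8.16 and 8.13 in control cells. The SDs there were 0.0043 in Cebpa-deleted and 0.02 in control cells, but the model, which shares the spread of all 6 groups, gave a change of -0.26 with an unadjusted p of 0.025 and an adjusted p of 0.42.

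Grhl2 and Elf5 showed the 2 largest falls at 24 h. Grhl2, a grainyhead factor that maintains epithelial junction genes, was at 7.34, 7.27 and 7.80 in Cebpa-deleted cells against 8.26, 8.11 and 8.08 in control cells, a change of -0.68 (SE 0.15, adjusted p = 0.0021). Elf5, an ETS factor of the distal lung epithelium, was at 7.53, 7.26 and 7.63 against 8.42, 8.20 and 8.08, a change of -0.76 (SE 0.19, adjusted p = 0.0038) that left 59.0% of the level in control cells. Neither gene overlapped between genotypes at that time. At 0 h Grhl2 was at 8.91, 8.995 and 8.79 in Cebpa-deleted and 9.03, 8.95 and 8.98 in control cells, and Elf5 at 9.21, 9.22 and 9.34 and at 9.49, 9.27 and 9.51, with changes of -0.09 and -0.17 that were not called. Grhl2 overlaps Gm16136 in RefSeq.

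At 2 h the Cebpa-deleted arrays of Grhl2 and Elf5 were spread widely. Elf5 was at 8.89, 8.17 and 7.84 in Cebpa-deleted cells against 8.25, 8.44 and 8.61 in control cells, and Grhl2 at 8.44, 8.002 and 7.73 against 8.11, 8.12 and 8.32. In both genes the first of these arrays was above every control array and the third below, so that the changes of -0.13 and -0.12 describe no common shift. That first array, Cebpa-deleted replicate 2, was also the highest of the 3 for Nkx2-1, Gata6, Foxa2 and Id2, had kept the most Cebpa (9.98 against 8.96 and 9.31), had the highest type II marker mean (12.63 against 12.29 and 12.04) and the lowest endothelial marker mean (8.64 against 9.48 and 9.56). Without it the 2 h changes were -0.42 for Elf5 (adjusted p = 0.13), -0.31 for Grhl2 (0.30) and -0.30 for Nkx2-1 (0.33), and no factor was called, beside 729 of all genes. The part of Cebpa, of other cells and of the array itself in this spread was not tested.

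Klf5, a Krüppel-like factor required for maturation of the perinatal mouse lung, was at 10.13, 10.21 and 10.29 in Cebpa-deleted cells at 24 h against 10.44, 10.50 and 10.55 in control cells. The groups did not overlap, and the change of -0.29 was the smallest of those called (SE 0.10, adjusted p = 0.028). It was called in 2 of the 6 fits that left out 1 array of the comparison, with adjusted p up to 0.099. At 0 h it was at 10.51, 10.65 and 10.45 in Cebpa-deleted and 10.55, 10.60 and 10.50 in control cells, and at 2 h at 10.04, 10.37 and 10.14 and at 10.29, 10.11 and 9.94. The genotypes were interleaved at both times, with changes of -0.01 and 0.07. Group means at 2 and 24 h were 10.18 and 10.21 in Cebpa-deleted cells, and 10.11 and 10.50 in control cells.

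Id2, which encodes an inhibitor that binds basic helix-loop-helix factors without contacting DNA and marks distal tip progenitors in the developing mouse lung, was not called by genotype at any time. It was at 9.29, 9.20 and 9.68 in Cebpa-deleted cells at 24 h against 9.88, 9.84 and 9.42 in control cells. The lowest control array lay among the Cebpa-deleted arrays, and the change was -0.32 (SE 0.19, adjusted p = 0.16). At 0 h it was at 10.78, 10.76 and 10.69 in Cebpa-deleted cells against 10.61, 11.13 and 11.29 in control cells, and at 2 h at 10.22, 9.69 and 9.71 against 9.86, 10.34 and 10.39. One array kept the genotypes from separating at each of these times as well. The changes at 0 and 2 h were -0.27 and -0.32, and the average over the times was -0.30 (adjusted p = 0.063). The 24 h value was 0.03 after a second quantile normalization, 0.42 with array range in the model and -0.03 without the 2 narrowest Cebpa-deleted 24 h arrays, and the 0 h value lay between -0.47 and -0.13 with single arrays left out.

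Sox9 was the one factor called higher in Cebpa-deleted than in control cells. It was at 6.97, 7.33 and 7.30 in Cebpa-deleted cells at 0 h against 6.34, 6.55 and 6.67 in control cells, a change of 0.68 (SE 0.12, 95% interval 0.42 to 0.94, adjusted p = 0.017). That is 160% of the level in control cells. At 2 h it stood at 7.19, 7.29 and 7.08 against 6.91, 6.67 and 6.83, a change of 0.38 that was not called (adjusted p = 0.17, unadjusted 0.0058) although the groups did not overlap, as 6.95% of all genes likewise lay higher without overlap. At 24 h it was at 7.16, 7.07 and 7.40 against 6.70, 6.5003 and 6.76, a change of 0.55 (SE 0.12, adjusted p = 0.0020). The lowest of the 9 Cebpa-deleted arrays (6.97) was above the highest of the 9 control arrays (6.91), a separation upward that 0.376% of all genes showed and no other factor. The gap between these 2 arrays was narrow. Sox9 also had the lowest mean of the factors over all arrays, 6.93, above that of 48.0% of all genes. No filter on low values was used, and whether Sox9 stood above the background signal of the arrays was not tested. The 3 Cebpa-deleted means were 7.20, 7.18 and 7.21 at 0, 2 and 24 h and did not differ beyond their SDs of 0.20, 0.10 and 0.17, while the control means of 6.52, 6.80 and 6.65 differed more.

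Averaged over the 3 times, the change of Sox9 was 0.54 (SE 0.07, adjusted p = 6.7e-05). It stayed called in all 18 fits that left out 1 array, after a second quantile normalization (0.49, adjusted p = 0.00034) and with array range in the model (0.63, 0.00028). Without the 2 narrowest Cebpa-deleted 24 h arrays, which leaves 1 array in that group, the change was 0.60. The call at 0 h was less firm, being kept in 2 of 6 fits without 1 array (changes 0.59 to 0.80, adjusted p 0.0095 to 0.076) and lost after a second quantile normalization (0.52, 0.16). Arrays whose omission ended it were control replicates 1 and 2 and Cebpa-deleted replicates 2 and 3. Sox9 moved in the same direction as the endothelial markers at each time, and the part of other cells in its level was not tested. Averaged over the times, 6 factors were called, with Nkx2-1 (-0.32), Foxa2 (-0.26), Gata6 (-0.25), Grhl2 (-0.29) and Elf5 (-0.35) lower beside Sox9, against a background of 16.9% of all genes called and 9.75% called lower. All 5 falls lost their call with array range in the model (-0.14 to -0.06), where 796 of all genes were called. Without the 2 narrowest arrays the 5 changes were -0.30 to -0.14. With single arrays left out, Nkx2-1 and Foxa2 were called in 18 of 18 fits, Grhl2 in 11, and Gata6 and Elf5 in 8 each, with adjusted p up to 0.076 in the others, and omission of replicate 1 or 2 of the Cebpa-deleted 24 h arrays ended the calls of all 3.

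Sox2, the airway counterpart of Sox9, was not called by genotype. At 24 h it was at 7.69, 8.13 and 8.23 in Cebpa-deleted cells against 8.13, 7.74 and 8.02 in control cells, and the arrays were interleaved (change 0.05, 95% interval -0.27 to 0.37). At 0 h it was at 7.64, 7.69 and 7.71 in Cebpa-deleted cells against 7.59, 8.07 and 8.05 in control cells, and at 2 h at 8.07, 8.38 and 8.06 against 8.46, 8.21 and 8.33. Its changes at these times were -0.22 and -0.16, each with an SE of 0.15, and the groups overlapped. The gene lies within Sox2ot in RefSeq, and the sources used here do not say whether its probes also detect that transcript.

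The calls of lower factors at 24 h, and the sign of some of these changes, depended on how the range of the arrays was treated. The 3 Cebpa-deleted 24 h arrays had the 3 narrowest ranges of the 18 (1.89, 1.82 and 2.13, against 2.44 to 2.52 on the control 24 h arrays). The last of these, at 2.129, was close to control 2 h replicate 1, at 2.132. After a second quantile normalization 5 factors were called, namely Nkx2-1 (-0.30), Foxa2 (-0.40), Grhl2 (-0.61) and Elf5 (-0.68) lower and Sox9 (0.55) higher, while Foxa1 (-0.10) and Gata6 (-0.23) were not and Klf5 turned to 0.05. That setting called 3409 of all genes lower and 3288 higher. With the array range as a covariate no factor was called and 4 of all genes were, and Sox9 stood at 0.87 (adjusted p = 0.14). The changes of Nkx2-1, Gata6, Grhl2 and Elf5 turned to 0.10, 0.04, 0.12 and 0.17 there. Those of Foxa1, Foxa2 and Klf5 did not turn sign, and Klf5 was at -0.40. The ranges of the genotypes did not overlap at 24 h, so range and genotype cannot be told apart at that time. Without the 2 narrowest arrays 1 Cebpa-deleted array was left at 24 h, whose spread is assumed to be that of the other groups. Sox9 was then at 0.74, and Elf5 (-0.60), Foxa1 (-0.36), Grhl2 (-0.35) and Nkx2-1 (-0.32) were lower. Calls that rest on 1 array are not read here. With single arrays left out, every factor called at 24 h except Klf5 was called in 6 of 6 fits.

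**Figure D3:**
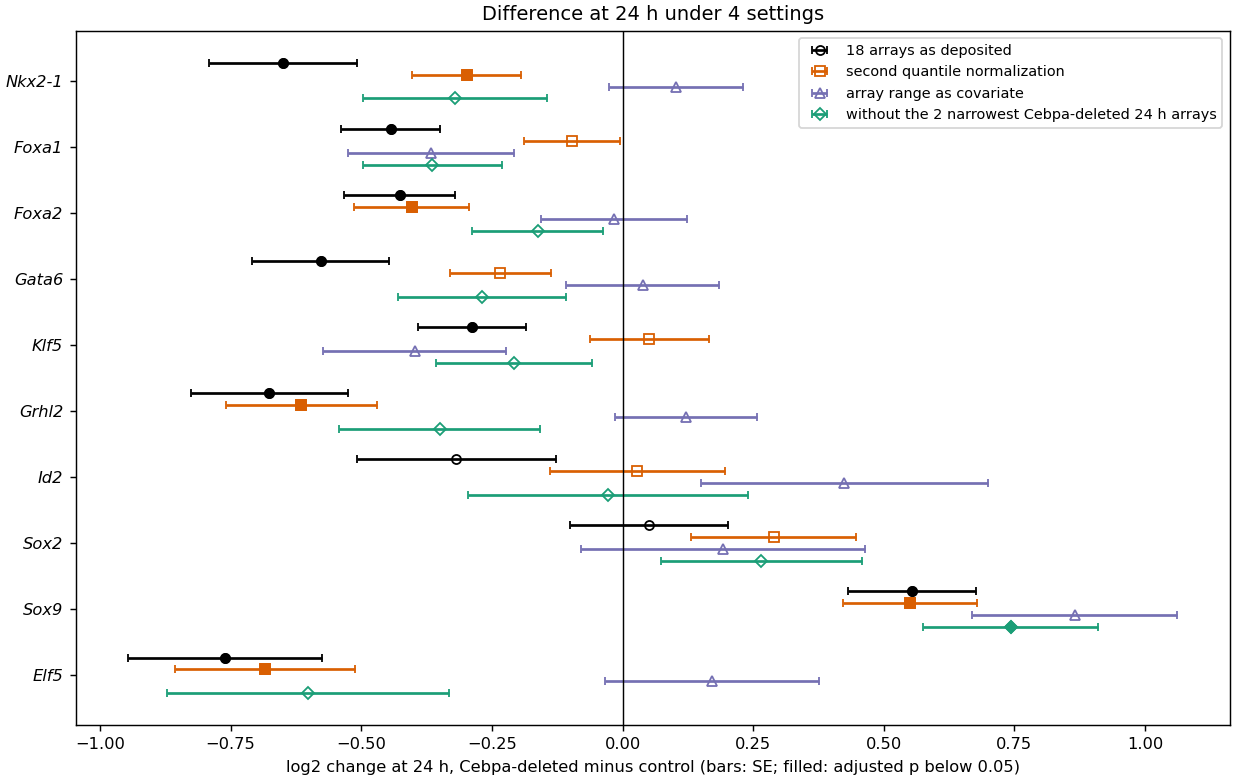
Log2 change of each factor at 24 h, Cebpa-deleted minus control, with SEs, for the 18 arrays as deposited (circles), after a second quantile normalization (squares), with array range in the model (triangles) and without the 2 narrowest Cebpa-deleted 24 h arrays (diamonds); filled symbols are called. Sox9 lies right of 0 in all 4 settings, Elf5 between -0.76 and 0.17, and Klf5 between -0.40 and 0.05.

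The 2 h response of the factors was compared between genotypes next. From 0 to 2 h, 5 factors were called in Cebpa-deleted cells (background 63.1% of all genes) and 7 in control cells (background 70.1%). Elf5 changed by -0.95 in Cebpa-deleted and -0.99 in control cells, Id2 by -0.87 and -0.81, and Grhl2 by -0.84 and -0.80. Klf5 changed by -0.36 and -0.44, and Sox2, which rose in both, by 0.49 and 0.43. Foxa2 (-0.42) and Sox9 (0.29) were called in control cells alone. In Cebpa-deleted cells Foxa2 changed by -0.25 (adjusted p = 0.052), close to the threshold, and Sox9 by -0.01 (0.93). The interaction at 2 h was called for none of the factors and for none of the 19938 genes by limma, with 0 of the factors and 1279 of all genes at an unadjusted p below 0.05. The 0 h arrays had wider ranges than those at 2 h. With range in the model the falls of Grhl2, Id2 and Elf5 in both genotypes and of Foxa2 in control cells changed sign, as that of Klf5 did in both after quantile normalization, so that their direction over time is not settled by these values. Quantile normalization left 6 factors called in Cebpa-deleted and 5 in control cells, 4 of them higher in each. Of all genes it called 7730 in Cebpa-deleted cells, 3858 of them higher, and 8361 in control cells, 4247 of them higher.

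From 2 to 24 h the number of factors called in each genotype turned on the setting. In Cebpa-deleted cells 4 factors fell, Nkx2-1 by 0.89 (adjusted p = 0.00043), Elf5 by 0.83 (0.0037), Foxa1 by 0.62 (0.00033) and Grhl2 by 0.59 (0.0079), against a background of 19.6% of all genes called lower. In control cells 1 factor was called, Klf5, which rose by 0.39 (adjusted p = 0.019; background 7.97% called higher). That call was kept in 2 of the 6 fits without 1 array, ended without replicate 2 or 3 of either control group (adjusted p up to 0.082) and was lost after a second quantile normalization (0.34, 0.056). Nkx2-1 changed by -0.38 in control cells without a call (0.089). Whether a factor's change differed between genotypes is given by the interaction, which shares arrays with both, and among the 10 factors only that of Foxa1 was called (-0.55). The same interaction was -0.52 for Nkx2-1 (adjusted p = 0.057), -0.63 for Elf5 (0.071), -0.55 for Grhl2 (0.054) and -0.36 for Klf5 (0.066). With array range in the model the counts turned round, to 0 in Cebpa-deleted cells, where Grhl2 turned to 0.035, and 5 in control cells, where Nkx2-1 (-0.70), Grhl2 (-0.37), Id2 (-0.80) and Elf5 (-0.59) were called lower and Klf5 higher. Of all genes that setting called 115 in Cebpa-deleted and 2785 in control cells. With only the arrays compared the counts of factors were 2 and 2, beside 1830 and 3434 of all genes. Over the whole span from 0 to 24 h, with the same 0 h arrays as above, 8 factors were called lower in Cebpa-deleted cells (background 41.5% called lower) and 5 in control cells (background 34.6%). Elf5 changed by -1.78 in Cebpa-deleted and -1.19 in control cells, Grhl2 by -1.43 and -0.84, Id2 by -1.35 and -1.30, and Nkx2-1 by -0.81 and -0.35. In Cebpa-deleted cells the fall of each of these 4 turned sign with the range as a covariate, and in control cells that of Nkx2-1 did. After a second quantile normalization 7 factors were called in Cebpa-deleted cells, 4 of them higher (Foxa1, Gata6, Klf5 and Sox2), and 6 in control cells, 3 of them higher (Foxa1, Gata6 and Klf5), while Grhl2, Id2 and Elf5 were called lower in both. Of all genes that setting called 12274 in Cebpa-deleted cells, 6199 of them higher, and 8112 in control cells, 4058 of them higher.

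Likeness between the factors from array to array was uneven, with a median r over the 45 pairs of 0.36 after the mean of each time was taken off and 0.31 after the means of the groups were. After the mean of each time was taken off, Pearson's r over the 18 arrays lay between 0.83 and 0.95 for the 10 pairs among Nkx2-1, Foxa2, Gata6, Grhl2 and Elf5, a set picked after the values were seen. It lay between 0.67 and 0.93 when the means of all 6 groups were taken off, that is within groups of the same genotype and time. Foxa1 was at 0.73 with Klf5 and at 0.53 to 0.67 with those 5 with time removed, and within groups at 0.44 with Klf5, at 0.64 with Sox9 and at -0.12 to 0.18 with the 5. The 9 pairs of Sox2 had medians of 0.09 and 0.15. With time removed Sox9 was negative with each of the other 9 factors, from -0.64 with Foxa2 to -0.03 with Sox2, and within groups it was positive with all 9, from 0.18 to 0.66. These values describe 18 arrays that share their range, preparation and genotype, and no p is attached to them.

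**Figure D4:**
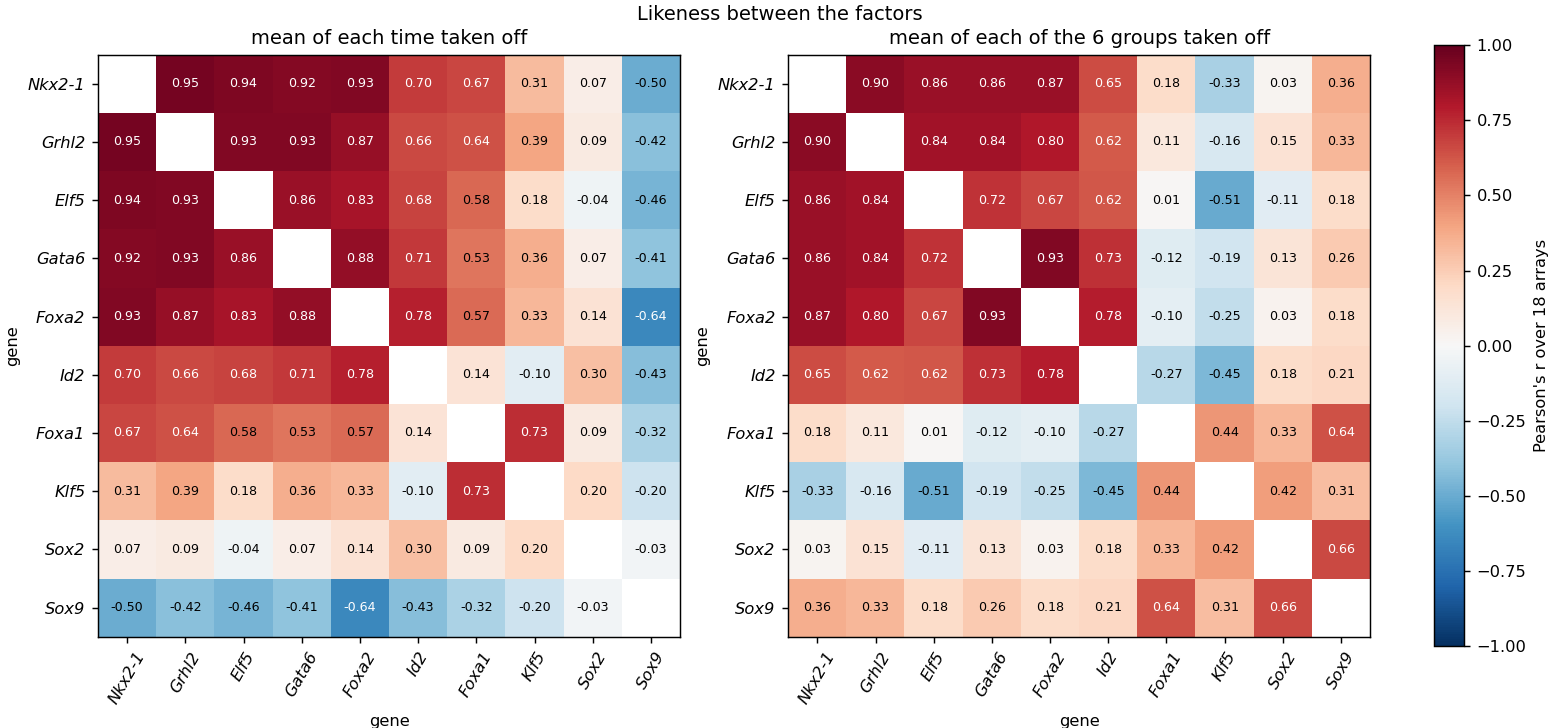
Pearson's r between the factors over 18 arrays, with the mean of each time taken off on the left and the mean of each of the 6 groups on the right. Nkx2-1, Grhl2, Elf5, Gata6 and Foxa2 form a block above 0.6 on both sides, and the Sox9 row is negative on the left and positive on the right.

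Among all genes in the upper 60% by mean level, those most like Nkx2-1 with time removed were Slc25a11, a mitochondrial carrier, Lgi3 and Ccdc47, each at r = 0.98. Grhl2 was followed by Pus10 (0.99), Copg2 and Aco1 (0.98 each), and Gata6 by Psma2, a proteasome subunit, Hspa13 and Sdc1, which encodes syndecan-1 (0.97 each). Elf5 was most like Bckdk, Etv5, an ETS factor of type II cells, and Trim23, each at 0.96. Foxa1 was most like Klhl21, Src and Pxn, each at 0.94, Foxa2 like Cdkn2aip, Kat7 and Trim33, also at 0.94, and Klf5 like Ndel1 and Epcam, an epithelial adhesion molecule (0.90 each), and Zfand5 (0.89). For Id2 the nearest were Cited2 (0.89), H2bc18 (0.88) and Ddit4 (0.87), and for Sox2 they were Sult1d1, Ttc30b and Bpifb1, at 0.77 to 0.80. The genes nearest to Sox9 were Ltbp2, which encodes a matrix protein that binds latent TGF-β complexes (0.892), Mybpc2 (0.885) and Fhl1 (0.878). With group means removed the r of Sox9 with these 3 was 0.19, 0.61 and 0.53, so most of the likeness to Ltbp2 lay in the genotype difference.

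Other genes of the same programme were read at 24 h beside the 10 factors. Of 30 other lung epithelial transcription factors 18 were lower and 2 higher in Cebpa-deleted cells, with a median change of -0.40, against 26.4% lower and 24.3% higher and a median of 0.05 over all genes at that time. At 0 and 2 h none of the 30 was called, beside 0.858% and 1.40% of all genes. The largest changes were those of Irx1 (-1.01, SE 0.21, adjusted p = 0.0015), an Iroquois homeobox factor, Tfcp2l1 (-0.997), Hopx (-0.94), a homeodomain protein of type I cells, and Ovol1 (-0.76), a zinc finger factor of epithelia. Of 31 paralogues of the members 7 were lower and 10 higher, with a median of 0.07, close to the 0.05 of all genes. Ehf (-0.73), Elf3 (-0.64) and Klf4 (-0.63), epithelial relatives of Elf5 and Klf5 that belong to both lists, were the largest falls, and Nkx2-6 (0.62), a homeobox relative of Nkx2-1, was the largest rise. At 0 h Gata2, the GATA factor of blood and endothelial cells, was the one paralogue called (0.82, adjusted p = 0.025), and at 2 h it was Klf7 (0.63, adjusted p = 0.016).

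Of 16 genes known as targets of NKX2-1, FOXA or GATA6, 13 were lower and 1 higher at 24 h, with a median of -0.78, again beside 26.4% of all genes lower and 24.3% higher. The largest falls were those of Cldn18, a tight junction claudin of alveolar epithelium (-1.26, adjusted p = 7e-05), Sftpd, surfactant protein D (-1.20), Lpcat1, which makes surfactant phosphatidylcholine (-1.01), and Lrp2, an endocytic receptor (-0.98). Scgb3a2, an airway secretoglobin and likewise an NKX2-1 target, was higher (0.56). Sftpd and Lpcat1 are also among the type II markers and Scgb3a2 among the airway secretory markers, so the target and marker lists share genes. At 0 and 2 h, when 0.858% and 1.40% of all genes were called, none of the 16 was called and the medians were -0.08 and -0.04. With shares that low, the absence of calls says little about the targets. Of 18 epithelial junction and polarity genes, among them targets of GRHL2, 14 were lower and 1 higher at 24 h (median -0.43) against the same background, led by Rab25, an apical recycling GTPase (-0.85), Ap1m2, an epithelial adaptor subunit (-0.79), Llgl2, a polarity protein (-0.69), and Cldn3 (-0.59), while Cldn4 was higher (0.43).

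These list counts moved with the same settings as the factors. After a second quantile normalization the lower and higher calls were 8 and 5 for the other lung factors, 1 and 11 for the paralogues, 11 and 2 for the targets and 6 and 2 for the junction genes, with medians of -0.18, 0.16, -0.52 and -0.10. Over all genes that setting gave 3409 lower and 3288 higher. In the fit with array range as a term none of these genes was called, and 4 of all genes were. Without the 2 narrowest Cebpa-deleted 24 h arrays the medians of the 4 lists, in the same order, were -0.17, 0.07, -0.47 and -0.28. Among cell markers at 24 h, with 26.4% of all genes lower and 24.3% higher, those of type II cells (15 of 16, median -0.78) and type I cells (10 of 12, median -0.70) were mostly lower. Those of endothelial cells (16 of 18, median 0.72), fibroblasts and smooth muscle (11 of 16, median 0.66) and lymphocytes (8 of 13, median 0.71) were mostly higher. Of airway secretory (2 of 9, median 0.30), ciliated (2 of 9, median 0.24) and basal cell markers (3 of 6, median 0.30) some were called higher and none lower. Of 16 macrophage markers 4 were higher and 2 lower (median 0.26). The part of these cells in the falls of the epithelial lists was not tested.

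**Figure D5:**
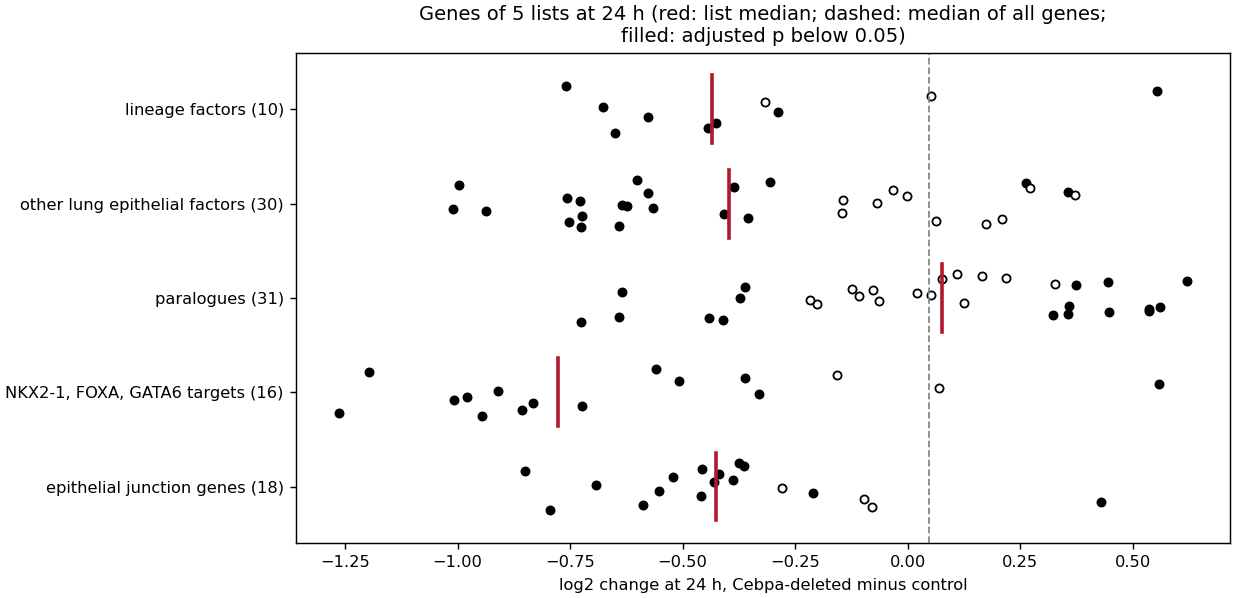
Log2 change at 24 h, Cebpa-deleted minus control, of the genes of 5 lists, 1 point a gene, filled where called; red lines are list medians and the dashed line the median of all genes (0.05). The target list reaches furthest down (median -0.78), and the paralogues spread to both sides of 0.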

How the data were processed

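Arrays of total RNA from isolated type II cells were hybridised after biotin labelling. RMA was the authors' method for the deposited log2 values, per the submitters' processing notes. Which arrays it normalized together, any filter and its version are not given in the sources used here. Samples were grouped by genotype and by the time in their titles, 3 arrays in each of 6 groups.

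Of 35557 features, 21789 had 1 gene symbol, and 21698 of these were matched by Entrez identifier. The 1621 features of several symbols and the 12147 of none were not used. For 999 genes with several features the one with the highest mean was used, giving 19938 genes with no filter on low values.

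A mean for each group was fitted to all 18 arrays with limma 3.58.1 (lmFit, eBayes) in R 4.3.3. P-values are two-sided, with Benjamini-Hochberg adjustment over all genes. In simulated 24 h data with 19938 genes this fit recovered 71% of genes changed 1.5-fold and 95% of those changed 2-fold, with 3 false calls. There 100 genes were changed by each fold, with independent noise on each array and no difference in array range. The real 24 h arrays differed in range and had 50.7% of genes called, so these shares do not carry over to the 24 h calls.

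The members, the gene lists and the rule for named genes (the factors, Cebpa, up to 4 called genes of each list with the largest change by genotype, and the 3 genes most like each factor) were chosen with earlier results of these data known. Genes named beyond this rule, such as Scgb3a2 and Cldn4, were picked after their values were seen. The alternatives were leaving out arrays, second quantile normalization, median centring, only the arrays compared, the replicate block, the mean of all features, the upper 60% of genes, trend and robust eBayes, each array's interquartile range as a covariate and, added after seeing the data, omission of both narrowest Cebpa-deleted arrays at 24 h. Same-numbered arrays of the 2 genotypes did not deviate together (correlations -0.24 to 0.06), so the numbers were not used as pairs. The number of arrays limits the precision.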

Additional observations from a re-analysis of the deposited data

Results flagged for a closer look

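In 4 cases the genotype difference itself changed with time by the interaction test. The change of Gata6, Cebpa-deleted minus control, was 0.58 log2 units lower at 24 h than at 0 h (-0.5831, SE 0.18, adjusted p = 0.044 from limma), and with single arrays left out the interaction ranged from -0.74 to -0.51 and was called in 3 of 12 fits. The change of Foxa1 was lower at 24 h than at 2 h by the same kind of test (-0.549, SE 0.13, adjusted p = 0.010), and was called in all 12 such fits. For Cebpa, the deleted gene, the interaction was -1.4052 between 24 and 0 h (adjusted p = 0.0075) and -0.7305 between 24 and 2 h (adjusted p = 0.037). After a second quantile normalization neither Gata6 (-0.25, adjusted p = 0.24) nor Foxa1 (-0.20, 0.31) was called, and with array range in the model they stood at -0.01 and -0.46 without a call. The interactions share arrays with the comparisons at single times.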

How the results depend on the processing

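Of 2080 values of single factors under other settings, 1856 kept their direction and side of the threshold or stayed uncalled, 135 lost a call, 59 gained one and 30 turned sign with a call before or after, while 108 values that were uncalled in both turned sign. Precision was limited by 3 arrays a group. The number of calls at 24 h changed with settings that treat the range of the arrays, which cannot be told apart from genotype at that time. The cause of the narrow range of the Cebpa-deleted 24 h arrays was not tested. After a second quantile normalization the number of factors called was 0 at 0 h, 5 at 24 h, 0 for both interactions that reach 24 h and 2 from 2 to 24 h in control cells. Of all genes 8 were called at 0 h, 6697 at 24 h, 1213 and 2595 for the interactions with 0 and 2 h, and 2745 in control cells. With the array range as a covariate it was 2 at 2 h (Nkx2-1 and Grhl2, both lower), 0 at 24 h, 1 for the average, 0 for both of those interactions, 0 and 5 from 2 to 24 h in Cebpa-deleted and control cells, 1 and 2 from 0 to 2 h, and 0 and 2 from 0 to 24 h. Of all genes that setting called 999 at 2 h, 4 at 24 h, 796 for the average, and 1 and 0 for the interactions with 0 and 2 h. Over time it called 115 and 2785 of all genes from 2 to 24 h, 1195 and 940 from 0 to 2 h, and 39 and 3369 from 0 to 24 h. With only the arrays compared the number of factors was 0 at 0 h, 3 for the interaction of 24 with 0 h, and 2 and 2 from 2 to 24 h in Cebpa-deleted and control cells. Of all genes 143, 4441, 1830 and 3434 were called there. Centring gave 2 factors for the interaction of 24 with 2 h and 3 from 0 to 24 h in control cells, beside 6022 and 11818 of all genes. The replicate block gave 3 factors for the average and 0 for the interaction of 24 with 0 h, beside 1924 and 775 of all genes. It moved no other count of factors by over 1.5 times. Without the 2 narrowest Cebpa-deleted 24 h arrays 1 array of that group was left, and counts of calls in that setting are not read here.

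With 1 array left out the number of factors called ranged from 0 to 1 at 0 h, 0 to 0 at 2 h, 7 to 8 at 24 h and 3 to 7 for the average. Of all genes the same fits called 32 to 139, 25 to 729, 6128 to 10988 and 2163 to 5783. The number of factors ranged from 0 to 4, 0 to 0 and 1 to 6 for the interactions of 24 with 0 h, 2 with 0 h and 24 with 2 h. All-gene counts for these were 278 to 5828, 0 to 1 and 2563 to 8608. Over time the number of factors was 3 to 7 and 0 to 1 from 2 to 24 h in Cebpa-deleted and control cells, 4 to 6 and 5 to 7 from 0 to 2 h, and 8 to 9 and 3 to 4 from 0 to 24 h. In the same order, all-gene counts were 2922 to 8093 and 1398 to 2143, 10471 to 13358 and 12321 to 13880, and 14467 to 15502 and 10525 to 10965.

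Changes called under at least 1 of the settings compared turned sign as follows, and the cause was not tested. By genotype at 24 h, Klf5 turned to 0.051 after quantile normalization, and Nkx2-1, Gata6, Grhl2 and Elf5 to 0.10, 0.038, 0.12 and 0.17 with the range as a covariate. From 0 to 2 h, quantile normalization gave 0.28 for Gata6 and 0.16 for Klf5 in Cebpa-deleted and 0.084 for Klf5 in control cells. Over the same hours the covariate gave 0.098, 0.0061 and 0.14 for Grhl2, Id2 and Elf5 in Cebpa-deleted cells and 0.17, 0.35, 0.26 and 0.36 for Foxa2, Grhl2, Id2 and Elf5 in control cells. From 0 to 24 h, quantile normalization gave 0.34, 0.28 and 0.47 for Foxa1, Gata6 and Klf5 in Cebpa-deleted and 0.077, 0.37 and 0.42 for Nkx2-1, Foxa1 and Klf5 in control cells. Over that span the covariate gave 0.66, 0.31, 0.74, 0.13, 0.10 and 0.038 for Nkx2-1, Foxa2, Gata6, Grhl2, Id2 and Elf5 in Cebpa-deleted and 0.42 and 0.094 for Nkx2-1 and Foxa2 in control cells. From 2 to 24 h in Cebpa-deleted cells Grhl2 turned to 0.035 with the covariate.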
